A study of Mus musculus with 12 samples.

Results

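The probes for the 4 DNA methyltransferase genes Dnmt1, Dnmt3a, Dnmt3b and Dnmt3l and for Uhrf1 were examined in mouse embryonic stem (ES) cells after knockdown (KD) of regulators that deposit, oxidise or read cytosine methylation. A probe was taken as a member when its accession mapped to 1 of these 5 gene symbols, which gave 8 of the 36110 probes tested and 5 of 29838 genes. RNA came from E14 cells, a feeder-independent ES cell line kept in serum and LIF on gelatin, 48 hr after transient transfection with esiRNAs, enzyme-made pools of short interfering RNAs. All groups were transfected, and the control (EGFP KD) received esiRNA against EGFP. In the other groups the target was Chd4, Dnmt1, Mbd2, Mbd3 or Tet1 (Chd4 KD and so on). Each of the 6 groups had 2 one-colour Agilent arrays, the labels name no genotype other than the E14 line, and each sample was 1 transfected dish. The comparison asks whether loss of a methylation regulator altered the mRNA of the enzymes that write and maintain the mark. Mbd3 and Chd4 are subunits of the NuRD chromatin remodelling complex, Mbd2 is a methyl-CpG binding protein that joins an alternative form of it, and Tet1 oxidises 5-methylcytosine.

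Cytosine methylation in mammals lies mostly on CpG dinucleotides. Dnmt3a and Dnmt3b place methyl groups on unmethylated sites, Dnmt3l is a catalytically inactive relative that stimulates them, and Dnmt1 copies the mark onto the new strand after DNA replication. Uhrf1 binds hemimethylated CpG and recruits Dnmt1 to it, and ES cells express all 5 genes.

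The genes lie at chr9:20907206-20959888 (Dnmt1), chr12:3801559-3914443 (Dnmt3a), chr2:153649411-153687730 (Dnmt3b), chr10:78042287-78063622 (Dnmt3l) and chr17:56303337-56323486 (Uhrf1) in RefSeq annotation of GRCm38.p6. Expression of 3 members turned out to carry the main patterns, and the sequence before the first annotated start of each is shown with CpG, the dinucleotide these enzymes modify, in capitals. Each stretch runs 5′ to 3′ from 250 to 51 bases before that start, on the strand of the gene, and comes from RefSeq. The letters searched were CG, which read the same on both strands.
Dnmt1 (chr9:20959939-20960138, minus strand): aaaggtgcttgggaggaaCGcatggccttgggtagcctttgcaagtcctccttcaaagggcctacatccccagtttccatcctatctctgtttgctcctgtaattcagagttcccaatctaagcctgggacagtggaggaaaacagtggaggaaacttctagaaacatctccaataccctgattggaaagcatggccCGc
Dnmt3b (chr2:153649199-153649398, plus strand): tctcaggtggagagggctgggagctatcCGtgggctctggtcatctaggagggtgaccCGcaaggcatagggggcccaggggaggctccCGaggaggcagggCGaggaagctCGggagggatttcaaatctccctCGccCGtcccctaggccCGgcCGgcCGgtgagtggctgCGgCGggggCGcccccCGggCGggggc
Uhrf1 (chr17:56303087-56303286, plus strand): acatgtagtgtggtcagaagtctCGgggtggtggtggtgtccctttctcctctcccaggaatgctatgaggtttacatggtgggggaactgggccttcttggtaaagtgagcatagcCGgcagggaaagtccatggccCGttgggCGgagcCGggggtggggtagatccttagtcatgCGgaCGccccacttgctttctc
The Dnmt1 stretch held 2 CpG, the Uhrf1 stretch 7 and the Dnmt3b stretch 15. Over 32851 RefSeq promoter windows of the same 200 bases the median was 4, with quartiles of 2 and 11, and 82.2% of windows held fewer CpG than that of Dnmt3b. Dnmt1 and Uhrf1 also have later annotated starts within the gene, where the same windows held 3 and 21 CpG for Dnmt1 and 24 for Uhrf1. Which start these cells use was not determined, so the stretches shown need not be the promoters in use. No methylation was measured on these arrays.

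Levels are given as log2 of the processed signal divided by the 75th percentile of its array, a scale on which a difference of 1 is a doubling. The 75th percentile lay between 1784.5 and 2451.6, and the share of probes well above background was 76.9% to 95.1%. Slide 1 of 3 carried the first arrays of the control and of the Dnmt1, Mbd2 and Mbd3 knockdowns, slide 2 carried the second control array, both Tet1 KD arrays and the first Chd4 KD array, and slide 3 carried the second array of the Chd4, Dnmt1, Mbd2 and Mbd3 knockdowns without a control. The label check gave a mixed picture. Mbd3 fell by 2.96 in Mbd3 KD (probe A_66_P127024, limma adjusted p = 0.0034) and Chd4 fell by 1.28 in Chd4 KD (adjusted p = 0.042), although the Chd4 call was lost when any of 10 of the 12 arrays was left out (adjusted p up to 0.22). Tet1 probe A_55_P2122997 was at the control level on the first array labelled Tet1 KD (2.05, where EGFP KD gave 2.14 and 2.00) and low on the first array labelled Mbd2 KD (0.28). The dimmer Tet1 probe (A_51_P512172) read 0.36 and -1.06 on these arrays, and -0.09 and 0.34 in EGFP KD. Mbd2 probe A_66_P133043 was low on the former (-2.71) and near the control on the latter (-1.20, where EGFP KD gave -0.83 and -1.09). The other Mbd2 probe (A_55_P2036526) did not show this pattern, with -0.97 and -0.85 on these arrays, -0.71 and -0.83 in EGFP KD, and its lowest level (-1.38) on the second array labelled Tet1 KD. Both arrays thus go against their labels by both Tet1 probes and 1 of the 2 Mbd2 probes. The study also checked KD by RT-qPCR and Western blot, which were not analysed here. The arrays were kept under their labels, and every value for Tet1 KD and Mbd2 KD below refers to the labelled groups.

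Of the ES cell markers, 7 of 8 were well above background on all 12 arrays, and Pou5f1, Zfp42 and Esrrb were saturated on 11 of them. The Nanog probe was dim, between -4.86 and -3.86, and well above background on 10 arrays. Summed signals of markers of other states, on the linear scale, differed between groups. For 4 fibroblast markers the sum was 4.16 to 4.79 in EGFP KD and higher in each KD, at 9.47 to 11.4 for Chd4 KD, 6.12 to 6.86 for Dnmt1 KD, 5.01 to 5.17 for Mbd2 KD, 8.96 to 9.57 for Mbd3 KD and 5.23 to 5.46 for Tet1 KD. Most of this sum was the signal of Thy1, a surface protein that is not particular to fibroblasts. Col1a2 differed from EGFP KD by -0.23 in Mbd3 KD and -0.02 in Chd4 KD, and Acta2 by 0.16 and 0.23, none of them called. The sum of 4 primed epiblast markers was 3.84 to 3.89 in EGFP KD, 4.94 to 5.35 in Mbd3 KD, 8.71 to 10.1 in Chd4 KD and at most 3.97 elsewhere. That of 3 trophectoderm markers was 2.62 to 2.76 in EGFP KD, 3.56 to 4.23 in Mbd3 KD, 5.37 to 6.02 in Chd4 KD and at most 3.45 elsewhere. In Mbd3 KD and Chd4 KD, most of the epiblast sum was the signal of Otx2 and most of the trophectoderm sum that of Krt18. On the log2 scale Otx2 read 2.74 and 3.01 and Krt18 2.25 and 2.45 in Chd4 KD. Primitive endoderm markers (4 genes) summed to 1.51 to 1.64 in Tet1 KD and to 0.835 to 1.41 over the other groups. The called genes among these markers were Thy1 in Mbd3 KD (1.28, adjusted p = 0.011) and in Chd4 KD (1.42, adjusted p = 0.0019), Col1a1 in Chd4 KD (2.49, adjusted p = 0.0019), Otx2 in Chd4 KD (1.84, adjusted p = 0.014) and the trophectoderm marker Krt18 in Chd4 KD (1.18, adjusted p = 0.02). In Mbd3 KD, Otx2 differed from EGFP KD by 0.88, Pou3f1 by -0.46, Krt18 by 0.59, Eomes by 0.18 and Cdx2 by -0.25, none of them called. In Chd4 KD, Pou3f1 differed by 0.19, Eomes by 0.43 and Cdx2 by -0.25, again none called. Fgf5 and T lay at the floor of the scale on 10 arrays each, and Cdx2 on 7. In bulk RNA, fewer cells of a type and less RNA per cell cannot be told apart.

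All 8 member probes were well above background on all 12 arrays. The Dnmt3l probe was saturated on every array, which leaves 7 probes of 4 genes that could be compared: 1 for Dnmt1, 1 for Dnmt3a, 3 for Dnmt3b and 2 for Uhrf1. After Benjamini-Hochberg adjustment over the 36110 probes, limma called 0 of the 7 in any KD. Over all probes, the called share was 3.15% for Chd4 KD, 0.764% for Mbd3 KD and 0% for each of the Dnmt1, Mbd2 and Tet1 knockdowns. An unadjusted p under 0.05 was found for 2 of 7 member probes in Chd4 KD (12.8% of all probes), 2 in Dnmt1 KD (4.93%), 1 in Mbd3 KD (9.78%), and 0 in both Mbd2 KD (2.22%) and Tet1 KD (3.12%). Those in Dnmt1 KD were Dnmt1 itself, the target of the esiRNA, and Dnmt3a.

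**Figure D1:**
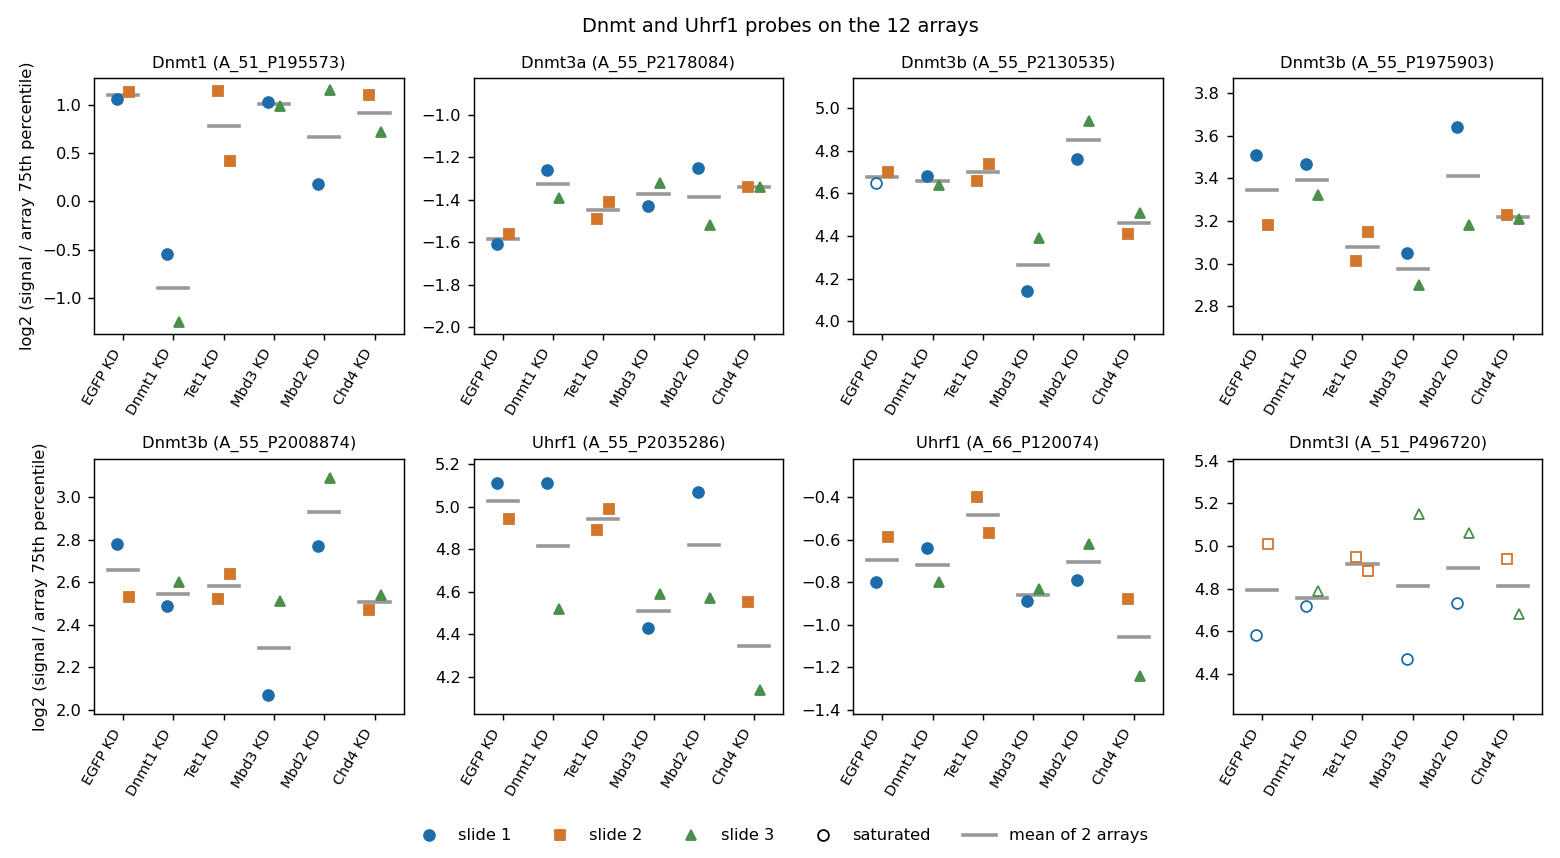
Level of each member probe on each array, as log2 of signal over the array's 75th percentile (y axis, a separate range for each panel), by labelled group (x axis), with the slide given by symbol and colour and grey bars for the mean of 2 arrays. Open symbols are saturated spots, which are all 12 for Dnmt3l and 1 for Dnmt3b. Dnmt1 is lowest on both Dnmt1 KD arrays (-0.54 and -1.25), the 3 Dnmt3b probes have their lowest means in Mbd3 KD and the 2 Uhrf1 probes have theirs in Chd4 KD.

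Dnmt1, the maintenance methyltransferase, was the member with the widest range. Its probe (A_51_P195573, NM_010066) read 1.06 and 1.13 in EGFP KD and -0.54 and -1.25 in Dnmt1 KD. It read 1.1 and 0.72 for Chd4 KD, 0.18 and 1.15 for Mbd2 KD, 1.03 and 0.98 for Mbd3 KD, and 1.14 and 0.42 for Tet1 KD. The Dnmt1 KD arrays were the 2 lowest of the 12, with no overlap with any other group. Their mean of -0.90 ± 0.50 (SD, n = 2) stood against 1.1 ± 0.05 (SD, n = 2) in EGFP KD. The difference of -1.99 (standard error 0.39, 95% confidence interval -2.92 to -1.06) corresponds to 25.1% of the control level, with a limma p of 0.0015 and an adjusted p of 0.38. The targeted gene was thus lowest on both of its arrays, and the difference did not pass the threshold over all probes. No probe on the array was called in Dnmt1 KD, and the smallest adjusted p over all probes was 0.084. An exact permutation test of 2 arrays against 2 cannot go below an exact p of 0.33. On slide 1, the Dnmt1 KD array lay 1.60 below the EGFP KD array of the same slide, and the value on the array of slide 3 has no control beside it. The probe's residual SD of 0.42 was larger than that of 68.8% of probes.

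Against the other KDs, Dnmt1 differed in Dnmt1 KD by -1.81 from Chd4 KD, -1.56 from Mbd2 KD, -1.90 from Mbd3 KD and -1.67 from Tet1 KD. The limma adjusted p values were 0.072, 0.89, 0.12 and 0.53 in that order. Over the 10 contrasts between KDs, the 7 probes gave 70 tests, of which 0 were called by limma and 16 had an unadjusted p under 0.05, beside 1.18% of all probe tests in these contrasts called and 9.3% below 0.05 without adjustment. The 16 include Dnmt1 itself, the targeted gene, in each contrast of Dnmt1 KD with another KD. The smallest adjusted p was that of Dnmt1 between Dnmt1 KD and Chd4 KD.

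In the other KDs, the mean Dnmt1 level differed from EGFP KD by -0.18 (Chd4 KD), -0.43 (Mbd2 KD), -0.09 (Mbd3 KD) and -0.32 (Tet1 KD), each with a confidence interval that included 0. The negative values in Tet1 KD and Mbd2 KD came from 1 array each. After the Dnmt1 KD arrays, the next lowest Dnmt1 levels were 0.18 on the first array labelled Mbd2 KD and 0.42 on the second array labelled Tet1 KD. These are the arrays on which both Tet1 probes were lowest, at 0.28 and 0.25 for A_55_P2122997. Within their slides they lay 0.88 and 0.71 below the EGFP KD array, whereas the first array labelled Tet1 KD differed by 0.01. The other 2 arrays of these groups, on which Mbd2 probe A_66_P133043, but not A_55_P2036526, was lowest (-2.71 and -2.73), read 1.14 and 1.15 for Dnmt1, beside 1.06 and 1.13 in EGFP KD. Tet1 probe A_55_P2122997 in turn read 1.47 and 1.18 on the Dnmt1 KD arrays, a difference of -0.74 from EGFP KD (standard error 0.65, adjusted p = 0.94). It was also lower in Chd4 KD, at 1.36 and 1.52, a difference of -0.62, where Dnmt1 read 1.1 and 0.72. This grouping of arrays was noticed from their values and no test was run on it.

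**Figure D2:**
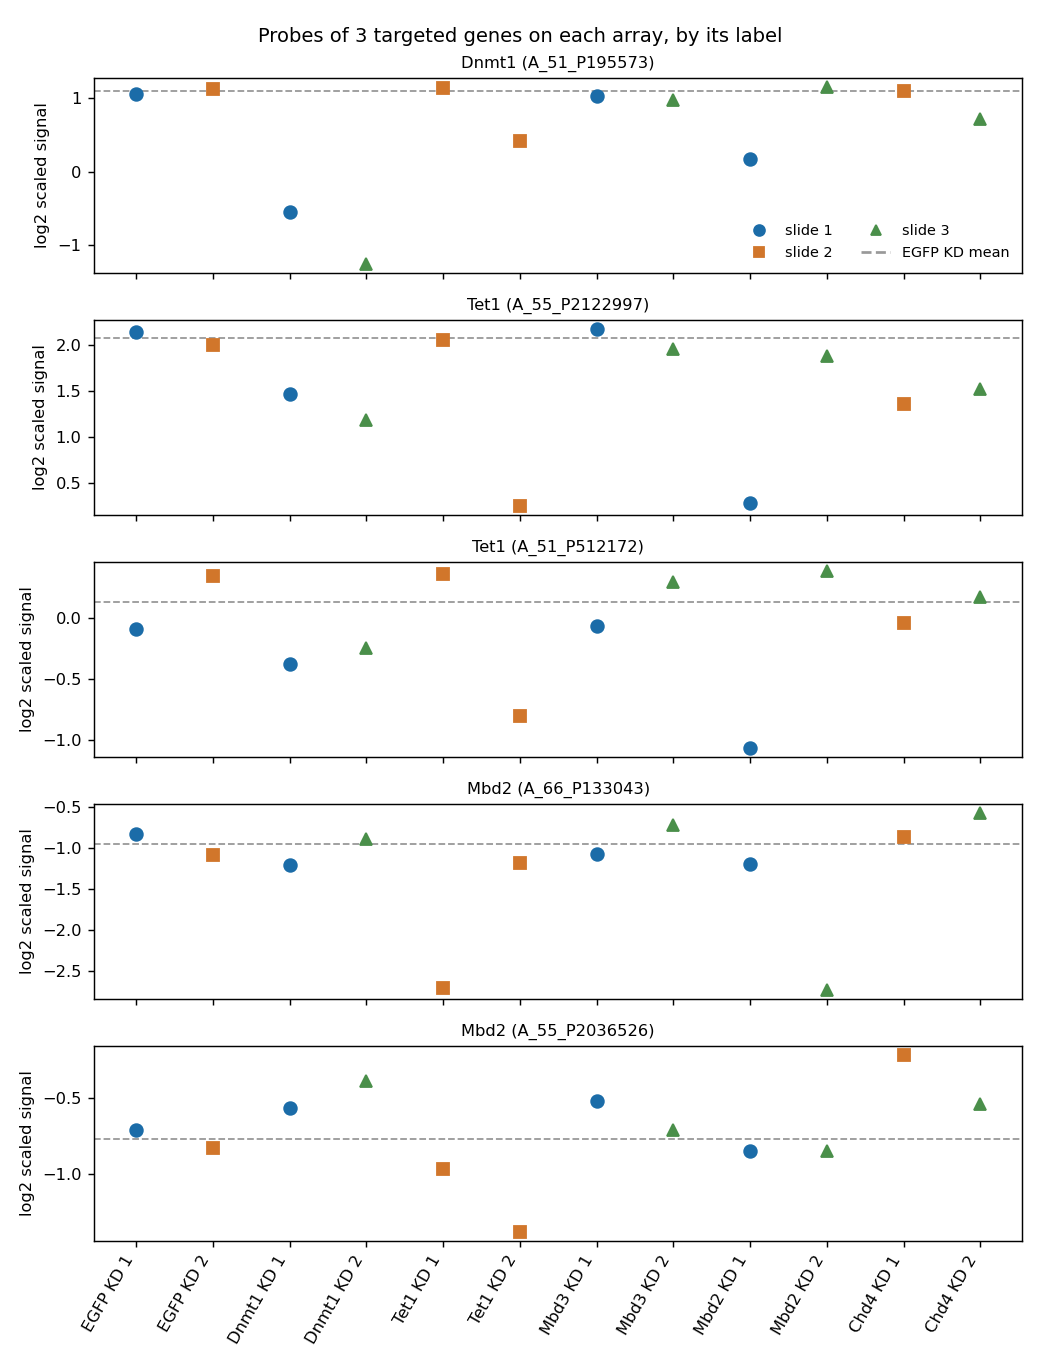
Levels of the Dnmt1 probe and of 2 probes each for Tet1 and Mbd2 (y axes, log2 of signal over the array's 75th percentile) on each of the 12 arrays in the order of their labels (x axis), with symbols for the slide and a dashed line at the EGFP KD mean. Both Tet1 probes are lowest on the arrays labelled Tet1 KD 2 and Mbd2 KD 1, on which Dnmt1 reads 0.42 and 0.18. Mbd2 probe A_66_P133043 is lowest on the arrays labelled Tet1 KD 1 and Mbd2 KD 2, whereas A_55_P2036526 is lowest on Tet1 KD 2 (-1.38).

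Dnmt3a, a de novo methyltransferase, varied least. Its probe (A_55_P2178084, NM_007872) ranged from -1.61 to -1.25 over the 12 arrays. It read -1.61 and -1.56 in EGFP KD and -1.26 and -1.39 in Dnmt1 KD. The EGFP KD arrays were the lowest of all 12 and did not overlap with any KD, and the difference in Dnmt1 KD was 0.26 (standard error 0.11, confidence interval 0.01 to 0.51, limma adjusted p = 0.94), or 120% of the control. For Chd4 KD, Mbd2 KD, Mbd3 KD and Tet1 KD the differences were 0.25, 0.20, 0.21 and 0.13, and all 5 differences turned negative with normexp background correction (-0.19 to -0.06). Since the 5 comparisons share the same 2 control arrays, their common sign is not independent evidence. Between KD groups, the Dnmt3a means spanned -1.45 to -1.32, and only the order of EGFP KD below Tet1 KD was free of overlap between neighbours.

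Dnmt3b, the other de novo methyltransferase, had 3 probes, and each had its lowest group mean in Mbd3 KD. The brightest probe (A_55_P2130535, NM_001003961) read 4.65 and 4.70 in EGFP KD and 4.14 and 4.39 in Mbd3 KD. Its spot on the first EGFP KD array was saturated, so that this reading can be too low. Over the 12 arrays the raw median signal of this probe was 35982 to 65519, up to the scanner's ceiling, near which differences can be compressed. The probe read 4.41 and 4.51 for Chd4 KD, 4.68 and 4.64 for Dnmt1 KD, 4.76 and 4.94 for Mbd2 KD, and 4.66 and 4.74 for Tet1 KD. The Mbd3 KD arrays were below all other arrays, with a difference from EGFP KD of -0.41 (standard error 0.11, confidence interval -0.67 to -0.16), or 75.1% of the control, a limma p of 0.0061 and an adjusted p of 0.2. The other 2 probes showed the same sign with more spread. Probe A_55_P1975903 read 3.51 and 3.18 in EGFP KD and 3.05 and 2.90 in Mbd3 KD, a difference of -0.37 (standard error 0.17, adjusted p = 0.58). Probe A_55_P2008874 read 2.78 and 2.53 in EGFP KD and 2.07 and 2.51 in Mbd3 KD, a difference of -0.36 (standard error 0.18, adjusted p = 0.61). On all 3 probes the Mbd3 KD array was the lowest of the 4 on its slide, on slides 1 and 3, although on slide 3 probe A_55_P2008874 read 2.51 there and 2.54 on the Chd4 KD array. Within slide 1 the differences between Mbd3 KD and EGFP KD were -0.51, -0.46 and -0.71. The 3 probes measure 1 gene, and their pairwise correlations over the 12 arrays were 0.426, 0.866 and 0.379.

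Mbd2 KD had the highest Dnmt3b mean on each probe, with differences from EGFP KD of 0.17, 0.06 and 0.28 and confidence intervals that included 0. The direct contrast of Mbd3 KD with Mbd2 KD gave -0.58 on A_55_P2130535 (standard error 0.11, limma adjusted p = 0.092), -0.43 on A_55_P1975903 (adjusted p = 0.65) and -0.64 on A_55_P2008874 (adjusted p = 0.29). One of the 2 arrays behind the Mbd2 KD mean goes against its label. In Dnmt1 KD, Dnmt3b differed from EGFP KD by between -0.11 and 0.04 on the 3 probes.

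Uhrf1, the partner that brings Dnmt1 to hemimethylated CpG, had its lowest level in Chd4 KD on both probes. The brighter probe (A_55_P2035286, NM_010931) read 5.11 and 4.94 in EGFP KD, 4.43 and 4.59 in Mbd3 KD and 4.55 and 4.14 in Chd4 KD. It read 5.11 and 4.52 for Dnmt1 KD, 5.07 and 4.57 for Mbd2 KD, and 4.89 and 4.99 for Tet1 KD. Its raw median signal was 37194 to 60652, near the scanner's ceiling of 65519, where differences can be compressed. The difference in Chd4 KD was -0.68 (standard error 0.25, confidence interval -1.27 to -0.09), or 62.3% of EGFP KD, with a limma adjusted p of 0.28, and that in Mbd3 KD was -0.52 (standard error 0.25, adjusted p = 0.6). With normexp background correction, these Uhrf1 (A_55_P2035286) differences were -0.28 in Chd4 KD and -0.08 in Mbd3 KD. The dimmer probe (A_66_P120074, NM_001111079) read -0.80 and -0.59 in EGFP KD and -0.88 and -1.24 in Chd4 KD, a difference of -0.36 (standard error 0.15, adjusted p = 0.37). Its levels were -0.64 and -0.80 for Dnmt1 KD, -0.79 and -0.62 for Mbd2 KD, -0.89 and -0.83 for Mbd3 KD, and -0.40 and -0.57 for Tet1 KD. The Chd4 KD array was the lowest of 4 on slides 2 and 3 with both probes, and within slide 2 it lay 0.40 and 0.29 below the EGFP KD array. Slide 3 had the lowest mean of the brighter probe, 4.46 against 4.93 on slide 1 and 4.84 on slide 2. There the Mbd3 KD array read the highest of 4 on this probe (4.59). A limma fit with the slide as a block gave -0.51 in Chd4 KD (adjusted p = 0.3) and -0.37 in Mbd3 KD (adjusted p = 0.55). In Dnmt1 KD, the 2 probes differed from EGFP KD by -0.21 and -0.02. The 2 Uhrf1 probes had a correlation of 0.673 over the 12 arrays.

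**Figure D3:**
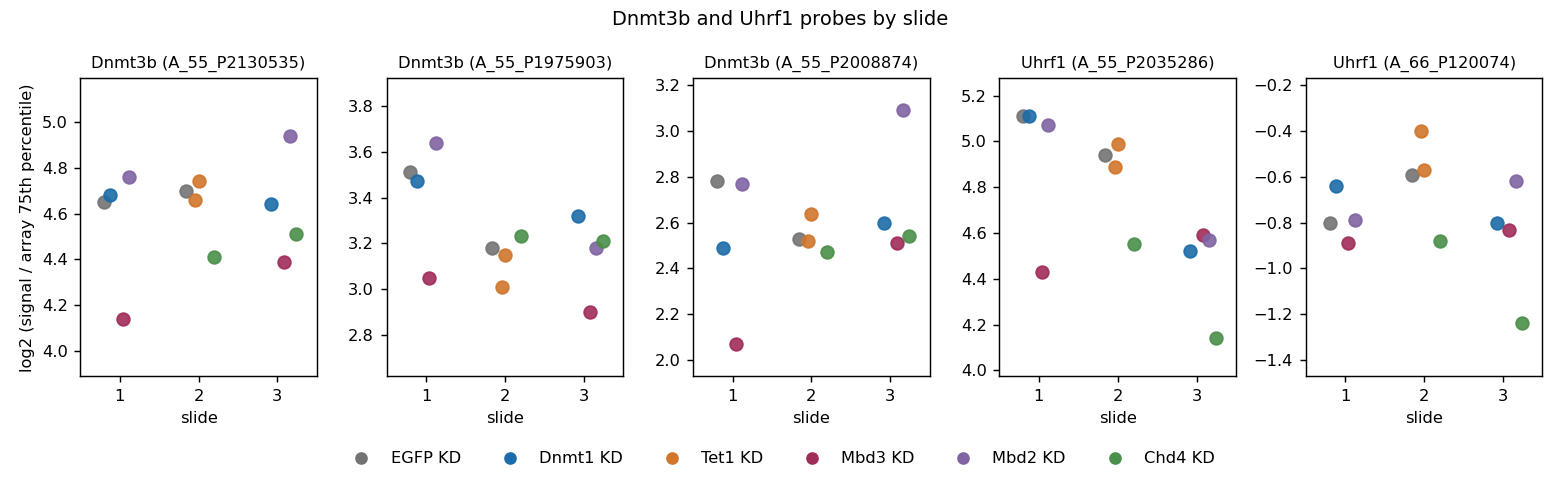
Levels of the 3 Dnmt3b and 2 Uhrf1 probes (y axis, log2 of signal over the array's 75th percentile, the same span in each panel) by slide (x axis), with each array coloured by its labelled group and points set apart sideways for legibility. The Mbd3 KD array is the lowest of 4 for Dnmt3b on slides 1 and 3, and the Chd4 KD array is the lowest of 4 for Uhrf1 on slides 2 and 3.

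In Mbd3 KD, the arrays of all 7 probes lay apart from those of EGFP KD, 6 below and 1 (Dnmt3a) above. Over all probes, 30.2% lay apart and 17% lay below. The nearest arrays lay close for Dnmt1, at 1.03 in Mbd3 KD and 1.06 in EGFP KD. They also did for Uhrf1 A_66_P120074 (-0.83 and -0.8) and Dnmt3b A_55_P2008874 (2.51 and 2.53). With the slide as a block, Dnmt1 differed by 0.02 and Uhrf1 A_66_P120074 by -0.02 in Mbd3 KD. In Chd4 KD, 4 of 7 lay apart, 3 of them below, where the shares of all probes were 38.1% and 18.8%. For Dnmt1 KD 2 of 7 lay apart, the targeted Dnmt1 and Dnmt3a (21.2% of all probes), for Mbd2 KD 2 (22.9%) and for Tet1 KD 3 (35.5%). The median difference of the 7 probes was -0.36 in Mbd3 KD and -0.18 in Chd4 KD, beside -0.03 and 0.00 over all probes, and it was -0.02 for Dnmt1 KD, 0.06 for Mbd2 KD and -0.07 for Tet1 KD, beside -0.01, 0.00 and 0.08. The 7 probes come from 4 genes on the same arrays and are not independent, and none of the differences in Mbd3 KD or Chd4 KD passed the adjusted threshold. The fibroblast, epiblast and trophectoderm marker sums were higher in Mbd3 KD and Chd4 KD than in EGFP KD. Not every marker of each list rose, as given above. The part of these markers in the Dnmt3b and Uhrf1 levels was not tested.

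**Figure D4:**
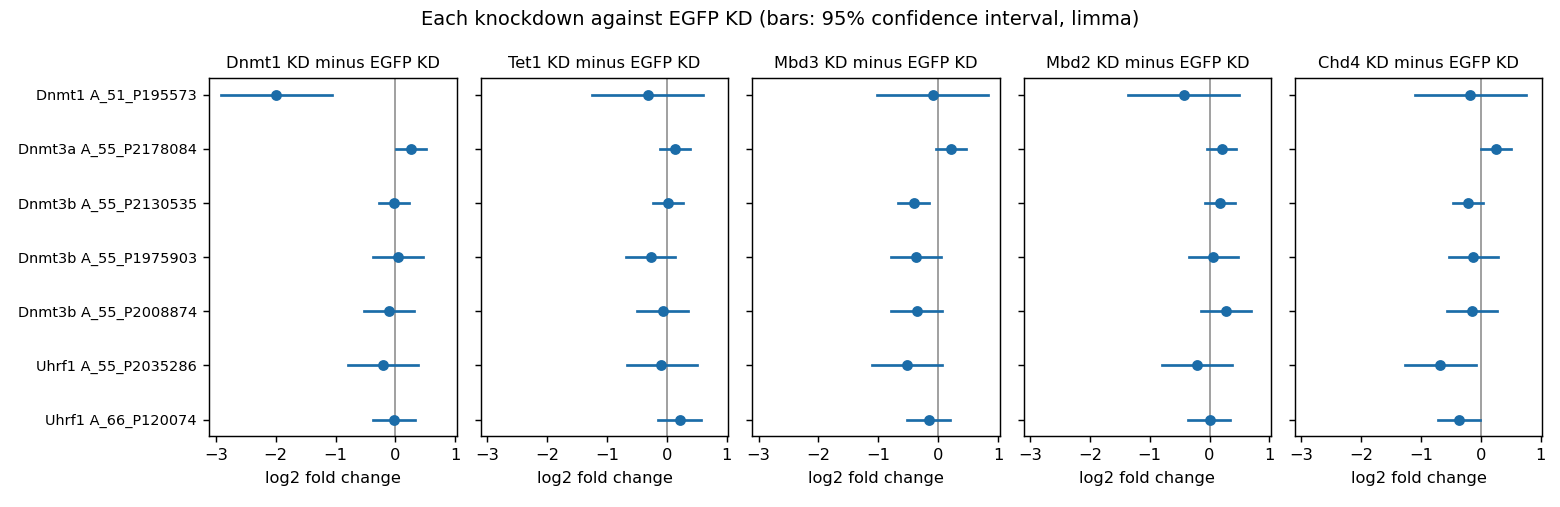
Log2 fold change of the 7 measured member probes (rows) in each KD against EGFP KD (x axis), with points for the limma estimate and bars for its 95% confidence interval. The interval for Dnmt1 in Dnmt1 KD runs from -2.92 to -1.06, and those that exclude 0 elsewhere lie close to it, such as -0.67 to -0.16 for the brightest Dnmt3b probe in Mbd3 KD.

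Dnmt3l, the cofactor of the de novo enzymes, could not be compared. Its probe (A_51_P496720, NM_019448) had a raw median signal of 65518 or 65519, the scanner's ceiling, on all 12 arrays. After scaling it ranged from 4.47 to 5.15, and this range followed the divisor of each array, with a correlation of 0.775 between the scaled level and minus log2 of the 75th percentile. The genes whose profile was most like it, Cfl1 (r = 1), Pbld1 (r = 0.999) and Set (r = 0.996), were each saturated on 12 arrays as well. No fold is given for Dnmt3l. The values show that the transcript was bright in every group.

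For each other member, the genes with the most similar profile over the 12 arrays were sought among 18864 genes with a symbol, using Pearson's r of the brightest probes. For Dnmt1 they were Prss44 (0.878), Fam169b (0.876) and Oscp1 (0.845). For Dnmt3a they were Gsdmd (0.883), Cd80 (0.83) and Phactr2 (0.818). The leading values were higher for the bright probes, with Tcea3 (0.969), Tmed4 (0.96) and Cmtr2 (0.939) for Dnmt3b and Fgfr1op2 (0.958) and Cebpzos (0.958) for Uhrf1. Among the members, r was 0.501 between Dnmt3b and Uhrf1 and -0.488 between Dnmt1 and Dnmt3a. The 12 arrays share controls, slides and scaling, and the best of many genes is high by selection, so these values are descriptive.

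Genes that work with the methyltransferases were counted with the brightest probe of each gene, over 29838 genes, of which 3.22% were called for Chd4 KD, 0.784% for Mbd3 KD and 0% for each of the Dnmt1, Mbd2 and Tet1 knockdowns. The share of genes with an unadjusted p under 0.05 was 12.9% for Chd4 KD, 4.81% for Dnmt1 KD, 2.11% for Mbd2 KD, 9.75% for Mbd3 KD and 2.92% for Tet1 KD. Of 20 partners and cofactors, limma called 0 in every KD, and an unadjusted p under 0.05 was found for 5 genes in Chd4 KD, 3 in Mbd3 KD and 0 in the other 3 KDs. Dppa3, which restrains Uhrf1 in oocytes, came nearest. It read 0.51 and 0.12 in EGFP KD and -0.63 and -0.73 in Mbd3 KD, the 2 lowest of the 12 arrays, a difference of -0.99 (standard error 0.16, adjusted p = 0.057). In Chd4 KD, the H3K9 methyltransferase gene Ehmt2 differed by -0.85 (adjusted p = 0.3) and Nsd1, which encodes an H3K36 methyltransferase, by -0.85 (adjusted p = 0.21). The list's median was -0.15 in Mbd3 KD and -0.29 in Chd4 KD, beside -0.03 and 0.00 over all genes. In Dnmt1 KD the median was -0.12 beside -0.02, with 16 of 20 genes below 0. Below 0 were also 18 genes in Tet1 KD, 16 in Chd4 KD, 13 in Mbd3 KD and 10 in Mbd2 KD. The median was -0.12 in Tet1 KD and 0.00 in Mbd2 KD, beside 0.09 and 0.00. The 2 largest differences in Dnmt1 KD were -0.33 for Mat2a, which makes the methyl donor, and -0.32 for Prdm14, a repressor of Dnmt3b. Mat2a read 4.67 and 3.97 there, beside 4.73 and 4.56 in EGFP KD. Mat2a differed by -0.63 in Mbd3 KD and -0.80 in Chd4 KD, and Prdm14 by -0.53 and -0.52, none of them called. Of the 20, Trim28 was saturated on 12 arrays and Pcna on 8, so that a fall in either could not be seen in full.

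Of 10 genes for the oxidation and removal of 5-methylcytosine, limma called 0 in every KD, with 2 in Chd4 KD, 1 in Mbd3 KD and 0 in the other 3 at an unadjusted p under 0.05. Tet2, an oxidase, differed by -0.98 in Chd4 KD (standard error 0.25, adjusted p = 0.11). The 2 largest differences in Dnmt1 KD were in Tet1, at -0.74, and in Tet3, another oxidase, at -0.66 (standard error 0.44, adjusted p = 0.94). The median in Dnmt1 KD was -0.17 beside -0.02 over all genes, with 9 of 10 genes below 0. It was -0.27 in Chd4 KD and -0.14 in Mbd3 KD, beside 0.00 and -0.03, with 7 and 8 of 10 below 0. In Mbd2 KD it was 0.04 and in Tet1 KD -0.02, beside 0.00 and 0.09.

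Dnmt1 and Uhrf1 are known to be expressed most in S phase, and 14 S-phase genes were therefore counted. Limma called 0 of them in every KD, with 4 in Chd4 KD, 1 in Mbd3 KD and 0 in the other 3 at an unadjusted p under 0.05. In Chd4 KD, 12 of 14 were below 0, with a median of -0.26 beside 0.00 over all genes, and their summed linear signal was 219 to 228 against 264 to 267 in EGFP KD. The 2 largest differences were -0.87 for Cdc6, a replication licensing factor (adjusted p = 0.24), and 0.64 for Tyms, thymidylate synthase (adjusted p = 0.81). E2f1, a regulator of S-phase genes that was singled out after its values were seen, had the smallest adjusted p of the list (-0.63, standard error 0.14, adjusted p = 0.061). Uhrf1 levels were also lower in Chd4 KD. The medians of the partner list and of the list for removal of 5-methylcytosine were -0.29 and -0.27 there. In Mbd3 KD, the brighter Uhrf1 probe differed by -0.52 and the S-phase median was -0.09 beside -0.03 over all genes. There 10 of 14 S-phase genes were below 0, beside 11 in Dnmt1 KD. The 1 gene with an unadjusted p under 0.05 in Mbd3 KD was again E2f1 (-0.41, limma adjusted p = 0.33). It read 1.07 on both Mbd3 KD arrays and 1.36 and 1.60 in EGFP KD. The part of the S-phase genes in the Uhrf1 levels was not tested. Mcm6 was saturated on 12 arrays and Pcna on 8, so that a fall in either could not be seen in full.

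Germline genes are a class that ES cells and somatic cells are known to silence through promoter methylation. Of 14 on the array, limma called 2 in Chd4 KD (3.22% of all genes), 1 in Mbd3 KD (0.784%) and 0 in the other 3 KDs (0%). An unadjusted p under 0.05 was found for 5 in Chd4 KD (12.9% of all genes), 6 in Dnmt1 KD (4.81%) and 4 in Mbd3 KD (9.75%). It was found for none in Mbd2 KD (2.11%) or Tet1 KD (2.92%). Of the 6 in Dnmt1 KD, 3 were above EGFP KD (Sycp1, Taf7l and Tuba3a) and 3 below (Ddx4, Mael and Sycp3), and these were listed after their values were seen. In Dnmt1 KD the median was 0.05 beside -0.02 over all genes, with Sycp1, a synaptonemal complex protein gene, at 0.63 (adjusted p = 0.83) and Ddx4, a germ cell RNA helicase gene, at -0.58 (adjusted p = 0.58). The Sycp1 probe lay at the floor of the scale on 2 arrays. Asz1, counted among the 14, lay there on all 12 and could show no difference. The summed linear signal of the list was 15.6 to 16 in Dnmt1 KD and 13.2 to 13.6 in EGFP KD. It was 13.4 to 14.6 in Tet1 KD, 13.6 to 14.5 in Mbd3 KD and 13 to 14.4 in Mbd2 KD. No sum is given for Chd4 KD, where a Ddx4 spot was dropped. Tuba3a was the brightest gene of the list, at 2.81 to 3.32 on the log2 scale.

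Stk31, a testis kinase-like gene, read -2.04 and -2.46 in EGFP KD and -3.44 and -3.84 in Mbd3 KD, with both Mbd3 KD arrays the lowest of 12. It fell by 1.39 on the log2 scale (standard error 0.21, adjusted p = 0.042), and the call was lost when any 1 of the 12 arrays was left out (adjusted p 0.065 to 0.18). Tex101, a germ cell surface protein gene, read -2.52 and -2.21 in EGFP KD and -1.0 and -1.22 in Chd4 KD, the 2 highest of 12. It rose by 1.25 (standard error 0.18, adjusted p = 0.013), and the call was lost without EGFP KD replicate 1 (adjusted p = 0.088), Chd4 KD replicate 1 (0.082) or Chd4 KD replicate 2 (0.062), and with normexp background correction the difference was 0.60 (adjusted p = 0.57). Ddx4 read -2.18 and -2.40 in EGFP KD and -3.32 on Chd4 KD replicate 1. Its spot on the other Chd4 KD array carried an outlier mark and was dropped, so its fall by 1.03 (standard error 0.17, adjusted p = 0.039) rests on 1 Chd4 KD array that is assumed to vary like the other groups. The call was lost in 9 of the 11 fits that left out an array (adjusted p up to 0.16).

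**Figure D5:**
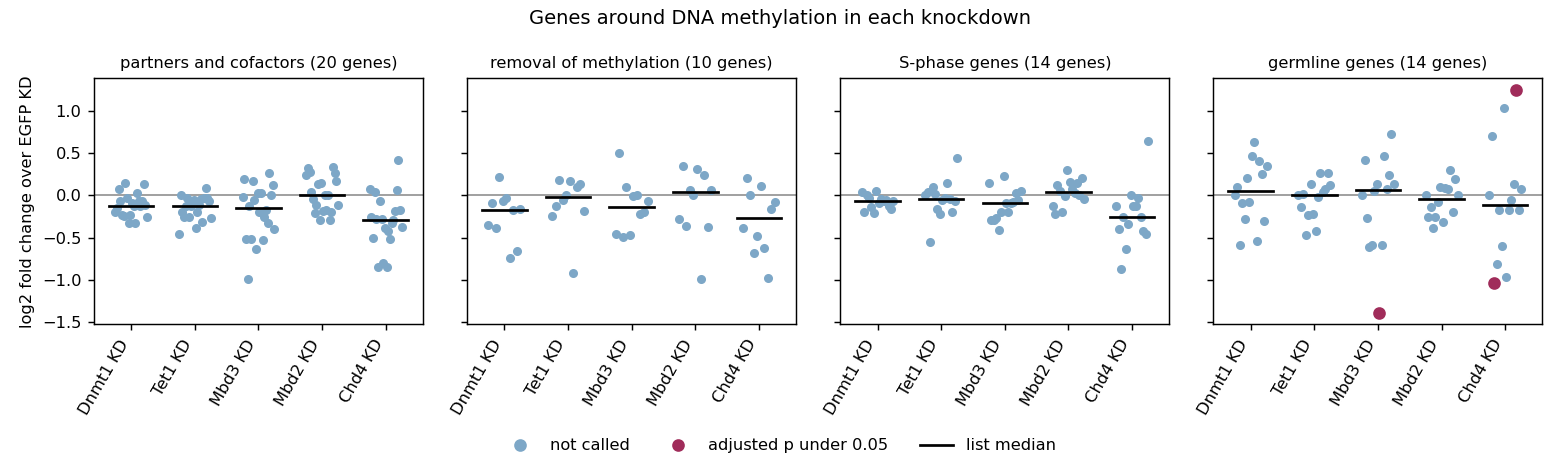
Log2 fold change over EGFP KD (y axis) of each gene of 4 lists (panels) in the 5 KDs (x axis), with a black line for the list median and larger dark points for genes with a limma adjusted p under 0.05. The called points are Stk31 in Mbd3 KD (-1.39) and Ddx4 (-1.03) and Tex101 (1.25) in Chd4 KD, all in the germline list.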

How the data were processed

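RNA of 12 samples, 2 in each of 6 groups named by the sample titles, was measured on one-colour Agilent mouse arrays. The authors labelled total RNA with Cy3 and deposited scanner output made with Feature Extraction 10.7.1.1 (per the labels), which holds an intensity for each spot, corrected for background and not scaled across samples. A further deposited table of log2 ratios to EGFP KD, with compressed values, served as an alternative for direction. The authors' methods name limma.

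The 1377 control spots were dropped from the arrays, as were spots flagged as outliers among the other 43020. The intensity was divided by the 75th percentile of its array, set to at least 0.0344 (log2 -4.86), and log2 was taken. Names came from RefSeq on GRCm38.p6 through the accession (71.4% of spots, and 98.4% of those with an NM accession). Of 39429 probes, 36110 were well above background on each array of 1 or more groups and were tested. A linear model over 12 arrays and 6 groups was fitted by lmFit and eBayes (limma 3.58.1, R 4.3.3), with Benjamini-Hochberg adjustment and a threshold of 0.05, and 95% confidence intervals were taken from it. Probes were kept separate for the members, and the brightest probe stood for other genes. A probe saturated on all arrays has only a bound.

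The genes named were all member probes, the other targeted genes, the 3 genes most like each member, and in each list the called genes or, where none was called, up to 2 with the largest differences. One gene that this rule names is not reported here. The members and lists were chosen with earlier results of these data known. The steps were tested on simulated data with 200 changed probes in each comparison. Alternatives were quantile and median scaling, normexp background correction, a lower floor, other filters, the brightest or mean probe of a gene, the replicate number or slide as a block, 4 arrays only, array weights, a trended robust prior, and each array left out. Leaving out the arrays that go against their labels, the mean probe and within-slide differences were added after seeing the data. Replicates were biological per the methods, and the number of arrays limits the precision.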

Additional observations from a re-analysis of the deposited data

How the results depend on the processing

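No member probe was called in any KD against EGFP KD under any of the 26 or 27 alternatives run for each KD. Dnmt1 in Dnmt1 KD stayed negative in all 29 alternatives. It lay between -2.35 and -1.64 with each array left out in turn (limma adjusted p 0.22 to 0.66), at -1.88 with the slide as a block (adjusted p = 0.35), at -1.60 within slide 1, and at -1.99 (standard error 0.27, adjusted p = 0.52) without both arrays that go against their labels. In the authors' table it was -0.235, on a compressed scale. The adjusted p was between 0.22 and 1 wherever a fit was made. Between KDs, the count of member probes called was 0 except for 1 with array weights, a Uhrf1 probe (A_66_P120074) between Tet1 KD and Chd4 KD, and the cause was not tested. The counts over all probes moved more. For Mbd3 KD, 276 probes were called, and 0 to 326 over 27 alternatives. For Chd4 KD, 1136 were called, and 0 to 1530. Dnmt1 KD, Tet1 KD and Mbd2 KD had 0, and at most 48, 38 and 69 when 1 array was left out. The contrasts between KDs had 4255 in all, and 0 to 4875. The value of 0 came from fits on only the 4 arrays of a comparison and, for Mbd3 KD, also from leaving out the arrays that go against their labels. Of 1285 other values under an alternative, 1132 kept their sign and side of the threshold and 97 lost a call. Among values not called, 56 changed sign, some of them close to 0, and 0 called values changed sign.

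With the replicate number as a block, Dnmt1 in Dnmt1 KD was -1.99 (adjusted p = 0.35), Stk31 in Mbd3 KD lost its call (adjusted p = 0.055), and 296 probes were called in Mbd3 KD and 1530 in Chd4 KD. Deviations of same-numbered arrays correlated between -0.046 and 0.759 (median 0.381) over 15 pairs of groups, above 0.1 in 10. Many same-numbered arrays also shared a slide, so that a pairing and a slide effect cannot be told apart. The numbers were not taken to pair the samples. The main fit had no block, and its p values take no account of these correlations. Having 2 arrays per group and saturation of bright probes limit what can be seen.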
